A study of Mus musculus with 10 samples.

Results

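Matrix metalloproteinases (Mmp), ADAM and ADAMTS proteases, the protease-like ADAMTSL proteins and the tissue inhibitors of metalloproteinases (Timp) were described in mouse lung RNA. The members were all genes whose symbol begins with Mmp, Adam, Adamts, Adamtsl or Timp and a number, with a value in all 10 libraries and a mean of at least 10 counts. This gave 57 of the 17465 genes with a value in all libraries, namely 15 Adam, 17 Adamts, 5 Adamtsl, 16 Mmp and 4 Timp genes. Another 28 family symbols were listed, of which 11 had a mean under 10 counts, 5 had a value in C files alone and 12 had no value. Just outside the minimum were Mmp27 with a mean of 9.2 counts and Adam5 with 8.3, and just inside it were Adam4 with 11.1 and Adamts19 with 12.5.

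The libraries were labelled HE (3), Hy (4) and C (3), all from lung tissue of genotype WT. The study's title names wild-type mice, mice in which hypoxia had caused pulmonary hypertension, and mice of that kind given aerobic exercise. No label explains the prefixes, which are therefore kept as names. One and the same treatment text stands on all 10 samples. The sources used here give no strain, age, oxygen level or exercise schedule. They do not tie each library to an animal of its own either, and the p-values therefore cover the spread among these libraries alone.

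Metalloproteinases of these families hold a zinc ion in the active site and are made as inactive precursors. MMPs cut collagens, elastin and other matrix proteins, ADAMs release the outer parts of membrane proteins such as growth factors and Notch receptors, and ADAMTS enzymes cut proteoglycans, procollagens and von Willebrand factor. TIMPs block most MMPs and some ADAM and ADAMTS enzymes, and in pulmonary hypertension the vessel wall and its matrix are rebuilt.

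Totals ran from 16560649 estimated counts in C1 to 17804039 in HE3. Genes with a value numbered 18713 in each C file and 17956 in each Hy or HE file, so C was tabulated apart, and this cannot be told apart from the group in any comparison with C. All 8 markers each of alveolar type 2 and of airway cells were above 0 in every library. The sum of 15 neutrophil markers was 214, 353 and 375 CPM in HE, 353, 1688, 302 and 2928 in Hy (in order of replicate number), and 401, 186 and 164 in C. Cardiac muscle markers, as found in pulmonary vein walls, summed to 1673 CPM in HE3, 2483 in Hy4 and 1728 in C1, against at most 680 in the other libraries. Smooth muscle markers summed to 1351 to 1597 CPM in HE, 1259 to 2226 in Hy and 636 to 1075 in C. Levels are CPM, read counts relative to the library's total after TMM scaling. After the mean CPM of a group, ± is the SD over its libraries, and after CPM per kb it is the SD over all 10 libraries. After a log2 fold change, ± is a standard error (SE) derived from the fold change and the F statistic of edgeR's quasi-likelihood test. In bulk tissue, fewer cells of a type and less RNA per cell cannot be told apart.

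The catalytic zinc site can be read in the coding sequence of the enzymes, and it is shown for genes on which the results turn. Its consensus has 3 histidines that hold the zinc, the catalytic glutamate and a glycine at the turn. In the longest coding transcript of each member (GENCODE M21, GRCm38), 37 of 57 held codons for all 5, among them 16 of 16 Mmp, 10 of 15 Adam and 11 of 17 Adamts genes, against 69 of 21614 coding genes (0.319%). The capitals below mark the fixed codons, and each site is printed 5′ to 3′ on the coding strand.
Mmp2, chr8:92839279-92839311, plus strand: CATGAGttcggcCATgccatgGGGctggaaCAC
Mmp3, chr9:7449775-7449807, plus strand: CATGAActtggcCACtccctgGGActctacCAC
Mmp8, chr9:7563086-7563118, plus strand: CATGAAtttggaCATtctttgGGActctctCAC
Mmp9, chr2:164951133-164951165, plus strand: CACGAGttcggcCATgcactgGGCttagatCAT
Mmp24, chr2:155807427-155807459, plus strand: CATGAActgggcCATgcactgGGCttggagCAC
Mmp25, chr17:23632843-23632875, minus strand: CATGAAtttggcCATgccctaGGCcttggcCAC
Adam12, chr7:133961158-133961190, minus strand: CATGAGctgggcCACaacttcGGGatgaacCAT
Adam15, chr3:89344780-89344812, minus strand: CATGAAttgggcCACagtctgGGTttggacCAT
Adam17, chr12:21336732-21336764, minus strand: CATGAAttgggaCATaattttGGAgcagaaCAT
Each of these sites lay within 1 coding exon.

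The sites of Adam10 and of the ADAMTS genes shown next were split over 2 exons, so their coordinates enclose an intron. In 6 ADAMTS genes (Adamts1, 4, 8, 9, 15 and 20) only 4 of the 5 fixed codons were present, because the glycine codon was replaced by an asparagine codon or, in Adamts8, a serine codon, printed in lower case.
Adam10, chr9:70754296-70761585, plus strand: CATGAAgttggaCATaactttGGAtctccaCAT
Adamts10, chr17:33538157-33538279, plus strand: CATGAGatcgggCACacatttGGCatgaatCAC
Adamts4, chr1:171253210-171253915, plus strand: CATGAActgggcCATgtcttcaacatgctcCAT
Adamts8, chr9:30952721-30953378, plus strand: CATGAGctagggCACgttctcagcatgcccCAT
Adamts9, chr6:92905285-92908493, minus strand: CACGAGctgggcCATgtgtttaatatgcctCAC
The other 14 members held no such site: Adam3, Adam4, Adam11, Adam22, Adam23, the 5 Adamtsl genes and the 4 Timp genes. Counts of genes past the test in each class were 6 higher and 5 lower of 37 with the whole site, 2 higher and 1 lower of 6 with 4 codons, and 2 higher and 2 lower of 14 without it, in Hy against C. In HE against C they were 4 higher and 6 lower, 1 higher and 0 lower, and 2 higher and 1 lower, in the same order of classes. Of all tested genes, 26.1% passed in Hy against C and 20.4% in HE against C. Whether the classes differ from this share was not tested.

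Of the 4 inhibitors, Timp2 and Timp3 stood at the top of the family when levels were put on a per-length scale. Timp1 ranked 15 (8.28 CPM per kb) and Timp4 ranked 51 (0.303) of the 57 members. Timp2 averaged 230.1 ± 24.0 CPM per kb of merged exon and Timp3 145 ± 35.8 over all 10 libraries. The enzymes that followed were Mmp2 with 49.9 ± 14.1, Adam15 with 49.0 ± 25.2, Adam9 with 37.8 ± 7.26 and Mmp15 with 31.9 ± 6.29 CPM per kb. Mmp2 and Adam15 did not differ beyond their spread in this order, which pools groups that differ. Adam15 averaged 48.0 CPM per kb in HE, 69.5 in Hy and 22.8 in C, and Mmp2 averaged 54.7 in HE, 38.2 in Hy and 60.6 in C, so Adam15 stood above Mmp2 in Hy and below it in HE and C. At the low end stood Adamts12 with 0.180, Mmp16 with 0.132 and Adamts19 with 0.0513 CPM per kb.

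**Figure D1:**
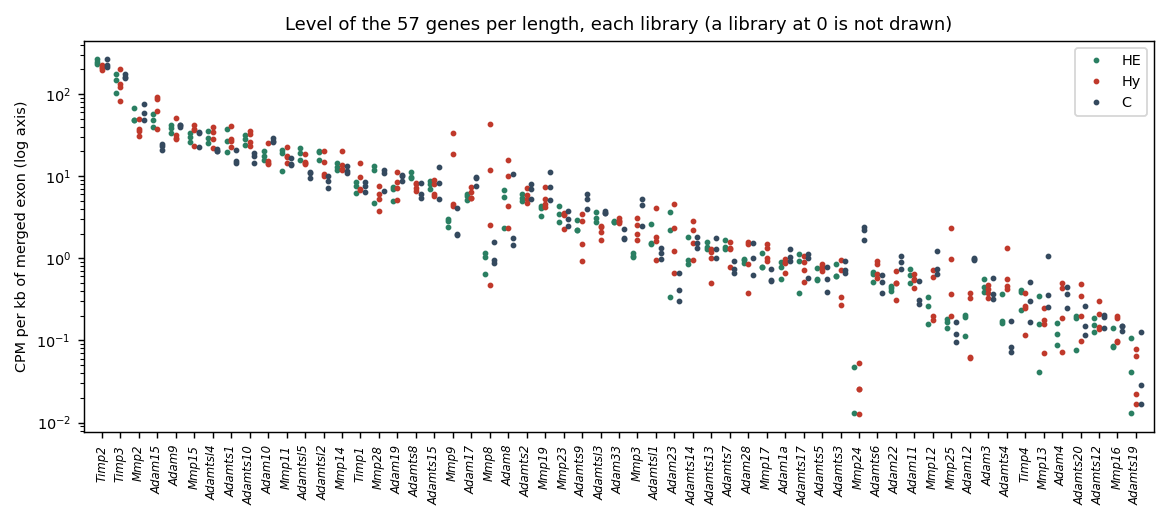
Level of each of the 57 genes in each library as CPM per kb of merged exon (log axis), in order of the mean, with HE green, Hy red and C blue-black. Timp2 and Timp3 lie above all other members on average, Mmp8 and Mmp9 spread widely among the Hy libraries, and Mmp24 separates C from the rest.

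In Hy against C, 18 of 57 members passed the test (31.6%), 10 higher and 8 lower, at a Benjamini-Hochberg adjusted p below 0.05 from edgeR's quasi-likelihood test across 14766 genes. The background was 26.1% of all tested genes, 15.1% higher and 11% lower. The members' median log2 fold change was 0.03, as over all genes (0.03), and the median absolute value was 0.56 against 0.38 over all genes. Groups did not overlap in 18 members (31.6%), against 33.6% of all genes. At an unadjusted p below 0.05 there were 24 members, against 40.3% of all genes. C and Hy libraries of the same number correlated weakly in their deviations from the group means (0.12, 0.25 and 0.13). Libraries of unlike number were not compared, so this does not show a pairing. A fit with the replicate number as a block stands beside the result. It called 6 members (10.5%), against 11.8% of all genes in that fit, namely Adam12, Adam15, Adamts4, Adamts9, Adamtsl3 and Mmp24, and it takes nothing from Hy4, which has no partner.

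In HE against C, 14 of 57 members passed (24.6%), 7 higher and 7 lower, against 20.4% of all genes, 11.7% higher and 8.66% lower. The median log2 fold change was -0.01 (0.02 over all genes), the median absolute value was 0.36 (0.38 over all genes), and 22 members did not overlap (38.6%, against 51.7% of all genes). At an unadjusted p below 0.05 there were 23 members, against 36% of all genes. Both comparisons use the same C libraries, so their values are given side by side and not counted as separate evidence.

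In HE against Hy no member passed edgeR's test, and neither did any gene of the 14766 (0%). At an unadjusted edgeR p below 0.05 there were 9 of 57 members (15.8%), against 4.97% of all genes, and the groups did not overlap in 8 members (14%), against 4.5%. DESeq2 called no member and 51 genes in all, with 9 members at an unadjusted p below 0.05 (15.8%, against 5.72% of all genes). limma-voom called no gene and had 6 members at that level (10.5%, against 4.33%). An adjusted p above the threshold does not show that HE and Hy were alike.

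**Figure D2:**
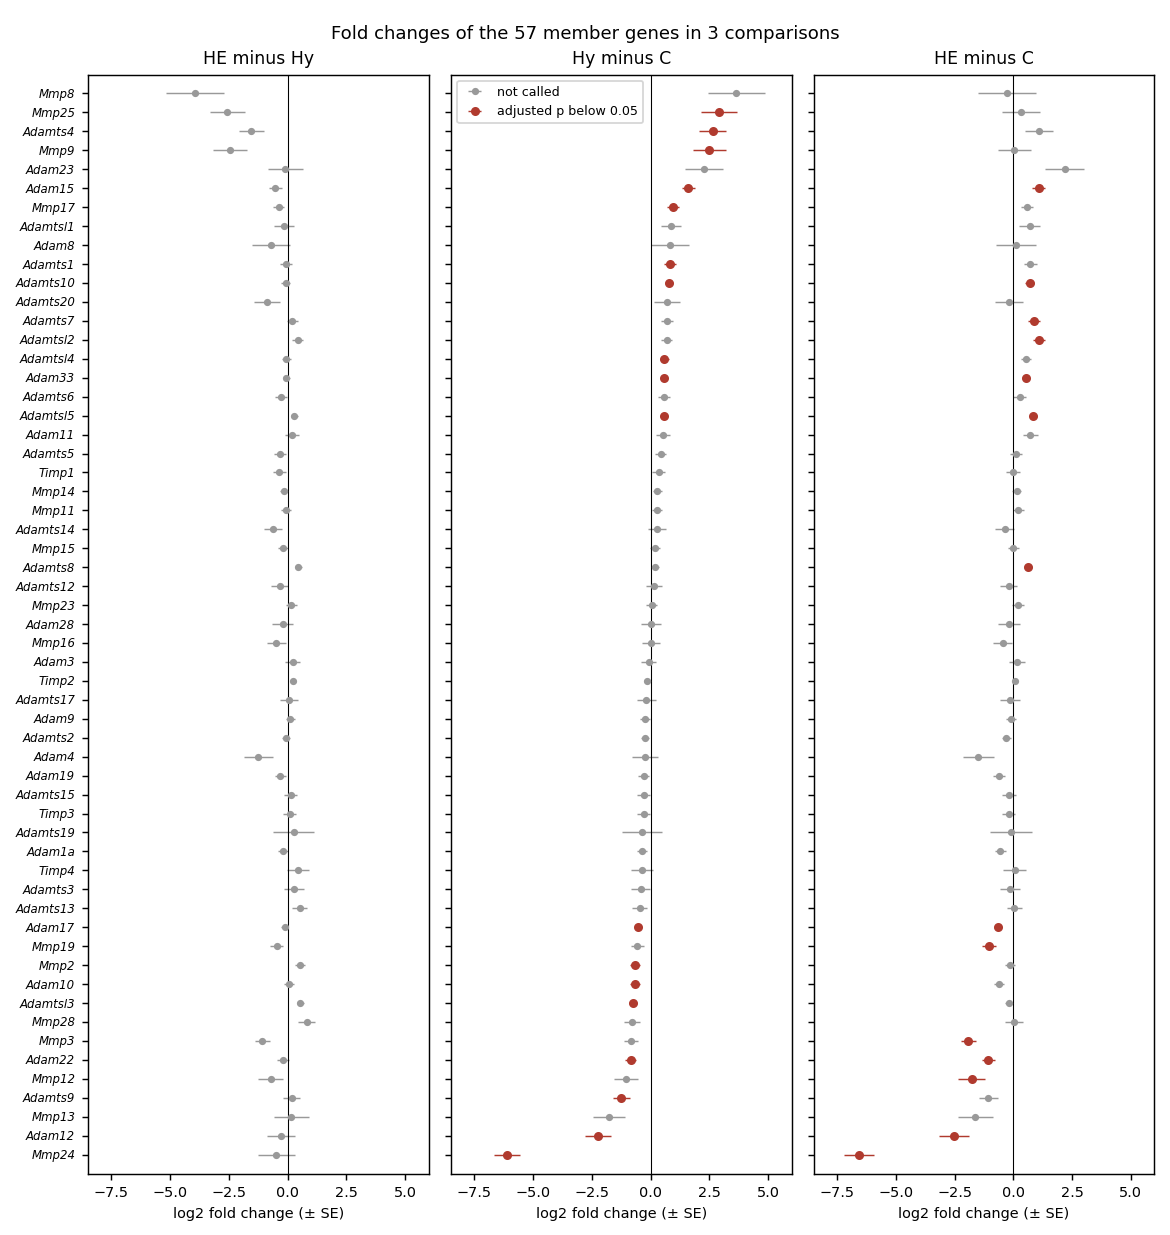
Log2 fold change of the 57 genes, with its SE as a whisker, for HE minus Hy, Hy minus C and HE minus C, ordered by Hy minus C. Red points passed the test, grey points did not, and no point of HE minus Hy is red.

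The 2 gelatinases moved apart in Hy. Mmp2, which cuts denatured collagen and basement membrane collagen, had 162, 162 and 229 CPM in HE, 168, 118, 125 and 104 CPM in Hy, and 195, 254 and 164 CPM in C. Hy and C touch, since Hy1 lay above C3. Mmp2 fell in Hy against C (log2 -0.67 ± 0.21 SE, adjusted p = 0.0398), but the adjusted p was 0.153 under the replicate block. Its call was also lost without any of C1, C2, Hy2, Hy4, HE1 or HE2 (adjusted p 0.0505 to 0.165). In HE against C the log2 fold change was -0.15 ± 0.22, and in HE against Hy it was 0.52 ± 0.21 (adjusted p = 0.925). Fibroblast markers summed to 5703 to 6541 CPM in HE, 3964 to 5572 in Hy and 4601 to 6198 in C, and their part in the Mmp2 value was not tested.

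Mmp9, the gelatinase that neutrophils and macrophages release, had 8.57, 10.2 and 10.7 CPM in HE, 16.2, 65.0, 15.3 and 119 CPM in Hy, and 14.7, 7.05 and 6.76 CPM in C. Every Hy library lay above every other, and Hy2 and Hy4 stood far above Hy1 and Hy3. Mmp9 rose in Hy against C (log2 2.50 ± 0.71, adjusted p = 0.0282). The replicate block gave log2 1.54 with adjusted p = 0.126, and leaving out C2, C3, Hy2 or Hy4 ended the call (adjusted p 0.0550 to 0.0983), as did limma-voom (0.0852). Without Hy4 the log2 fold change was 1.76. In HE against Hy the log2 fold change was -2.45 ± 0.70 (adjusted p = 0.739).

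Other genes for neutrophil enzymes had the same libraries on top. Mmp8, neutrophil collagenase, had 1.55, 2.79 and 2.48 CPM in HE, 1.13, 28.8, 6.24 and 103 CPM in Hy, and 3.85, 2.33 and 2.10 CPM in C. Hy1 was the lowest of all libraries and Hy4 the highest, so the groups overlap. Mmp8 did not pass in Hy against C (log2 3.65 ± 1.22, adjusted p = 0.0515) or in HE against Hy (log2 -3.93 ± 1.24, adjusted p = 0.739). In Hy against C it was called higher by DESeq2 (adjusted p = 0.00705) and in edgeR's fit without Hy1 (0.0123) or Hy3 (0.0333). Mmp25, a membrane-anchored enzyme of leukocytes, had 0.747, 0.969 and 0.883 CPM in HE, 1.97, 5.13, 1.06 and 12.5 CPM in Hy, and 0.892, 0.641 and 0.511 CPM in C. All Hy libraries lay above all others, although Hy3 was close to HE2. Mmp25 rose in Hy against C (log2 2.91 ± 0.77, adjusted p = 0.0216), and the adjusted p was 0.0583 with the replicate block, 0.0582 to 0.0832 without C1, C2 or C3, and 0.0924 with limma-voom. Without Hy4 the call held at log2 1.99 (adjusted p = 0.0422).

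The neutrophil marker sum was highest in Hy4 and Hy2, the libraries in which Mmp8, Mmp9 and Mmp25 were highest. Of the defining granule markers, Elane and Mpo were at 0 in some libraries, and the other 13 of 15 were above 0 in all. Without Hy2 and Hy4, a setting chosen after seeing the data, Hy against C gave log2 0.72 for Mmp9 (adjusted p = 0.197), 1.13 for Mmp25 (adjusted p = 0.157) and 0.40 for Mmp8. In HE against Hy the same setting gave -0.68, -0.80 and -0.69, in the same order of genes.

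**Figure D3:**
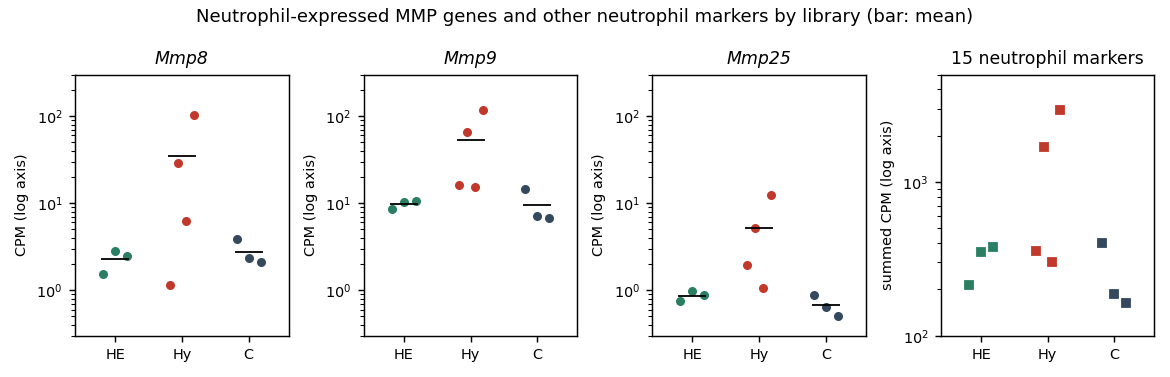
CPM of Mmp8, Mmp9 and Mmp25 and the summed CPM of 15 other neutrophil markers in each library (log axes), with the group mean as a bar for the 3 genes. Hy2 and Hy4 are the highest libraries in each panel, at 28.8 and 103 CPM for Mmp8, 65.0 and 119 CPM for Mmp9, and 1688 and 2928 CPM for the markers.

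The stretch of 250 bases before the start of Mmp8 and Mmp25 is shown because their levels were highest in the same libraries, with the core motif of the myeloid factor PU.1 (GAGGAA, either strand) in capitals. Sequences are from RefSeq on GRCm38.p6, where 36 members had a promoter.
Mmp8, chr9:7558179-7558428, plus strand: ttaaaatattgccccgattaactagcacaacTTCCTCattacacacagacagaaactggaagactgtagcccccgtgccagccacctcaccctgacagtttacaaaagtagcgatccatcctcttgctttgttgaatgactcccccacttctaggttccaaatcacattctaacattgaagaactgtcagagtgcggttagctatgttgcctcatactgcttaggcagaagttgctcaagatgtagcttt
Mmp25, chr17:23645270-23645519, minus strand: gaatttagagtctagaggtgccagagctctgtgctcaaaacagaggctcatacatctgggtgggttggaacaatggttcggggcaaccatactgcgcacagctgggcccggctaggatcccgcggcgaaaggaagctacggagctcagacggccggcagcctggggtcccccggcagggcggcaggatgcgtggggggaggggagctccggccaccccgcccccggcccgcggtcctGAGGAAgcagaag
Each window held 1 match. Mmp9 was not among the 36 members with a promoter, and the window of Adam8, an enzyme of leukocytes, held no match. The motif was present in 5 of 36 member promoters (13.889%), the others being Adam19, Adamtsl2 and Mmp12, against 23.134% of 27025 promoters. ACGTG, the core bound by hypoxia-inducible factors, was present in 7 of 36 (Adam10, Adam19, Adamts17, Adamts20, Adamts3, Mmp14 and Timp1), or 19.444% against 16.566%. TGANTCA, the AP-1 motif, was present in those of Mmp3 and Mmp13, 5.556% against 6.868%. The 3 motifs share no full match with each other, and these letter matches are a description only.

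Mmp3, stromelysin-1, which cuts proteoglycans and activates other pro-MMPs, had 1.90, 2.06 and 1.88 CPM in HE, 5.49, 3.01, 4.56 and 3.51 CPM in Hy, and 8.08, 9.49 and 4.43 CPM in C. HE was the lowest group with no overlap, whereas Hy and C overlapped. Mmp3 fell in HE against C (log2 -1.91 ± 0.33, adjusted p = 0.00575), and this call held with each library left out (adjusted p at most 0.0281). The log2 fold change was -0.82 ± 0.29 in Hy against C (adjusted p = 0.0632) and -1.09 ± 0.31 in HE against Hy (adjusted p = 0.739). In Hy against C, Mmp3 was called lower by DESeq2 (adjusted p = 0.0360) and without C3 (0.0378) or Hy1 (0.0437).

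Mmp12, the elastase of macrophages, had 1.90, 1.15 and 2.43 CPM in HE, 4.24, 1.42, 5.18 and 1.27 CPM in Hy, and 4.68, 8.85 and 5.28 CPM in C. HE lay below C throughout, and Hy spanned both. Mmp12 fell in HE against C (log2 -1.77 ± 0.56, adjusted p = 0.0488), but the adjusted p was 0.0521 to 0.158 without any C library, any HE library or Hy1. Macrophage markers summed to 1636 to 3466 CPM in HE, 1991 to 3040 in Hy and 2846 to 4244 in C, with all 13 above 0 in every library, and their part was not tested.

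Mmp19, a secreted enzyme that cuts basement membrane proteins, had 11.4, 15.4 and 14.4 CPM in HE, 16.4, 14.8, 26.0 and 18.6 CPM in Hy, and 25.7, 40.1 and 18.01 CPM in C. It fell in HE against C (log2 -1.02 ± 0.30, adjusted p = 0.0361), and the call was lost with the replicate block (adjusted p = 0.0658) and without C1, C2 or any HE library (0.0727 to 0.136). Mmp19 shares part of its span with Tmem198b, and strand use was not stated. The estimated counts of both genes were fractional in C (460.92, 689.03 and 317.39 for Mmp19) and whole in every HE and Hy library. Reads there were thus shared out in C alone, and the part of this in the Mmp19 fall was not tested. The other secreted enzymes, Mmp11, Mmp13, Mmp23 and Mmp28, passed in no comparison, with log2 fold changes from -1.76 (Mmp13, Hy against C, at 0.110 to 2.85 CPM over all libraries) to 0.81 (Mmp28, HE against Hy).

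Among the 6 membrane-type MMPs, Mmp24 had the greatest difference in the family. Its raw counts were 0, 1 and 4 in HE, 2, 1, 4 and 2 in Hy, and 187, 135 and 197 in C. The CPM were 0, 0.0606 and 0.221 in HE, 0.119, 0.0590, 0.250 and 0.121 in Hy, and 10.4, 7.86 and 11.2 in C, with no overlap. Mmp24, which is best known from the nervous system, fell in Hy against C (log2 -6.10 ± 0.55, adjusted p = 0.000165) and in HE against C (log2 -6.58 ± 0.64, adjusted p = 0.000352). With so few reads the fitted values and their SE depend on the prior count, and without HE3 the HE value was -8.06. The calls held in every setting tried. The gene lies at chr2:155775342-155818367 (GRCm38.p6) and overlaps BC029722 and Gm46772, neither of which had a value, and the separate tabulation of C cannot be told apart from this difference.

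A like difference stood beside another member: 1700020L24Rik, whose span overlaps Mmp28, had 0 to 2 counts in HE, 0 to 3 in Hy and 63.51 to 109.34 in C. Mmp28 itself had 46.2, 51.1 and 18.2 CPM in HE, 14.5, 29.5, 20.6 and 23.3 CPM in Hy, and 25.3, 45.7 and 42.2 CPM in C. Its estimated counts were fractional in C1 (454.49) and C2 (783.66) and whole in every other library. The part of this in the Mmp28 values was not tested.

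Mmp17, anchored to the membrane by a lipid, had 5.23, 7.63 and 5.13 CPM in HE, 6.09, 8.79, 9.86 and 6.60 CPM in Hy, and 4.91, 3.55 and 3.52 CPM in C. Both HE and Hy lay above C. It rose in Hy against C (log2 0.97 ± 0.25, adjusted p = 0.0207), whereas the adjusted p was 0.0621 with the replicate block and 0.0814 or 0.0832 without C2 or C3. Mmp14, which activates pro-Mmp2 at the cell surface together with Timp2, averaged 77.7 ± 8.22 CPM in HE (n = 3), 86.8 ± 23.6 in Hy (n = 4) and 70.7 ± 6.60 in C (n = 3). Its log2 fold changes were 0.30 ± 0.19 in Hy against C and 0.13 ± 0.20 in HE against C, neither past the test, and Mmp15 and Mmp16 passed in no comparison either.

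No TIMP passed in any comparison. Timp2, which blocks MMPs and takes part in activating pro-Mmp2, had 903, 968 and 1029.8 CPM in HE, 817, 838, 888 and 765 CPM in Hy, and 834, 1052 and 868 CPM in C. HE lay above Hy without overlap (log2 0.23 ± 0.13, adjusted p = 1.00). Timp3, which stays bound to the matrix and also blocks Adam17, had 836, 1409 and 1221 CPM in HE, 675, 979, 1623 and 1063 CPM in Hy, and 1293, 1444 and 1261 CPM in C. The Hy libraries of Timp3 enclosed all others. Timp1, the inducible member, averaged 6.62 ± 1.02 CPM in HE (n = 3), 8.45 ± 3.26 in Hy (n = 4) and 6.64 ± 0.867 in C (n = 3). Timp4, the member known from heart and fat, averaged 2.02 ± 0.562 CPM in HE, 1.49 ± 0.636 in Hy and 1.94 ± 1.05 in C. Log2 fold changes of the 4 genes ran from -0.38 to 0.44 over the 3 comparisons. All 4 Timp genes share part of their span with another gene, which is a synapsin gene for Timp1, Timp3 and Timp4.

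**Figure D4:**
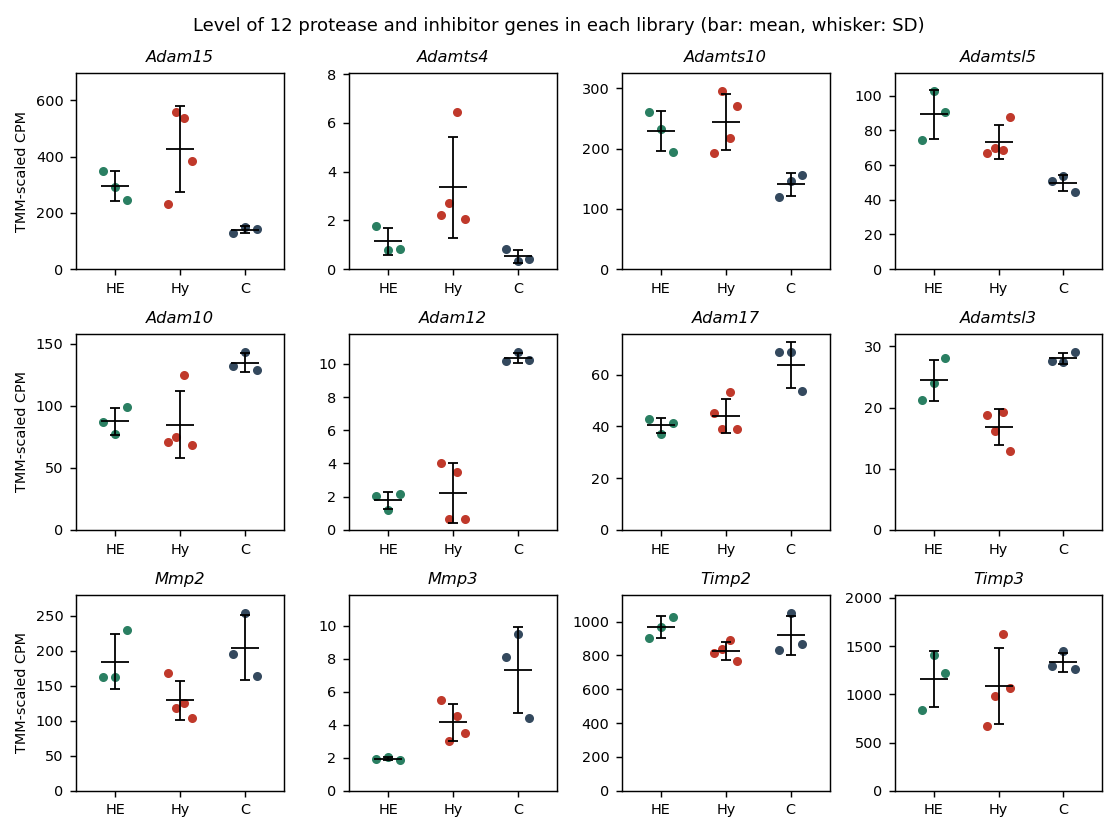
TMM-scaled CPM of 12 genes in each library, HE green, Hy red and C blue-black, with the mean as a bar and the SD as a whisker. Adam15, Adamts10 and Adamtsl5 lie higher in HE and Hy than in C, Adam10, Adam12 and Adam17 lie lower, Mmp3 is lowest in HE at 1.88 to 2.06 CPM, and Timp3 overlaps in all groups.

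Both main sheddases were lower in Hy than in C. Adam17, which releases tumour necrosis factor and ligands of the epidermal growth factor receptor, had 42.9, 37.1 and 41.2 CPM in HE, 45.2, 38.9, 53.2 and 39.1 CPM in Hy, and 68.9, 68.8 and 53.7 CPM in C. All C libraries lay above all others, Hy3 and C3 being close. Adam17 fell in HE against C (log2 -0.66 ± 0.15, adjusted p = 0.0173) and in Hy against C (log2 -0.53 ± 0.14, adjusted p = 0.0226). The Hy call was lost with the replicate block (adjusted p = 0.0914) and without C1, C2, Hy2 or Hy4 (0.0581 to 0.0896), and the HE call without C1, C2 or HE2 (0.0629 to 0.0727). Iah1, which overlaps Adam17, had 195 to 220 counts in HE, 137 to 192 in Hy and 156 to 364 in C, and its part was not tested.

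Adam10, which cleaves Notch receptors and the amyloid precursor, had 87.3, 77.1 and 98.9 CPM in HE, 70.9, 74.8, 125 and 68.2 CPM in Hy, and 132, 144 and 129 CPM in C. C was highest without overlap, and Hy3 stood apart from the other Hy libraries. Adam10 fell in Hy against C (log2 -0.67 ± 0.20, adjusted p = 0.0354), and without Hy3 the log2 fold change was -0.93 (adjusted p = 0.000409). The call was lost with the replicate block (adjusted p = 0.0716) and without C1, C2, C3, Hy1, Hy2, Hy4 or HE1 (0.0510 to 0.110). In HE against C the log2 fold change was -0.62 ± 0.22 (adjusted p = 0.0695). There Adam10 was called lower by DESeq2 (adjusted p = 0.0335), in a fit of HE and C alone (0.00451) and without Hy3 (0.00291).

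Adam12, a sheddase known from muscle and mesenchymal cells, had 2.01, 1.21 and 2.15 CPM in HE, 4.00, 0.649, 3.50 and 0.666 CPM in Hy, and 10.1, 10.7 and 10.2 CPM in C. The C libraries were close together and far above the rest, and Hy2 and Hy4 lay below Hy1 and Hy3. Adam12 fell in HE against C (log2 -2.52 ± 0.64, adjusted p = 0.0228) and in Hy against C (log2 -2.23 ± 0.57, adjusted p = 0.0193). Its adjusted p was 0.0504 to 0.0588 in Hy against C without C1, C2 or C3, and 0.0559 to 0.0898 in HE against C without any C or HE library. Without Hy2 and Hy4 together, Hy against C gave log2 -1.48 (adjusted p = 0.0251).

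Adam15, whose ectodomain binds integrins and which is expressed in endothelium, had 348, 293 and 244 CPM in HE, 230.2, 557, 538 and 383 CPM in Hy, and 127, 151 and 143 CPM in C. Every HE and Hy library lay above every C library. Adam15 rose in HE against C (log2 1.07 ± 0.29, adjusted p = 0.0289) and in Hy against C (log2 1.60 ± 0.28, adjusted p = 0.00457), and was -0.53 ± 0.27 in HE against Hy (adjusted p = 1.00). The Hy call held with each library left out (adjusted p at most 0.0255). The HE call was lost without C1, C2, C3, HE1 or HE2 (0.0760 to 0.0920). Endothelial markers summed to 4322 to 4919 CPM in HE, 4242 to 5094 in Hy and 3861 to 4746 in C. These ranges overlapped, and the part of the markers in the Adam15 value was not tested.

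Adam33, known from human airway smooth muscle, had 14.7, 14.7 and 15.1 CPM in HE, 15.2, 15.4, 16.7 and 14.4 CPM in Hy, and 12.3, 9.61 and 9.21 CPM in C. It rose in HE against C (log2 0.52 ± 0.15, adjusted p = 0.0339) and in Hy against C (log2 0.58 ± 0.14, adjusted p = 0.0157). The Hy call was lost with the replicate block (adjusted p = 0.0531) and without C2 or C3 (0.0701 and 0.0741), and the HE call with the block (0.0647) and without C2, C3 or any HE library (0.0843 to 0.129). The sum of smooth muscle markers given above was likewise lowest in C without overlap, and its part in the Adam33 value was not tested.

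Adam8, an enzyme of leukocytes, had 25.9, 10.8 and 31.7 CPM in HE, 19.9, 46.7, 10.7 and 72.5 CPM in Hy, and 48.8, 6.82 and 8.13 CPM in C. The groups overlapped fully, and the highest library of each group was HE3, Hy4 or C1, the libraries with the highest sums of both neutrophil and cardiac muscle markers in their groups. Within Hy the order of Adam8 (Hy4, Hy2, Hy1, Hy3) was that of the neutrophil sum, and the part of either marker list was not tested. Adam8 passed in no comparison, and neither did the remaining enzymes Adam9, Adam19, Adam28 and Adam1a, with log2 fold changes between -0.60 and 0.11.

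Of the ADAMs without a zinc site, Adam22, a synaptic receptor of LGI proteins, fell. It had 5.69, 6.66 and 6.29 CPM in HE, 7.11, 4.48, 9.99 and 7.27 CPM in Hy, and 15.4, 10.6 and 13.0 CPM in C, with C highest and no overlap. The log2 fold change was -1.06 ± 0.27 in HE against C (adjusted p = 0.0227) and -0.85 ± 0.25 in Hy against C (adjusted p = 0.0309). The Hy call was lost with the replicate block (adjusted p = 0.0705) and without C1, C2, C3, Hy1, Hy2 or Hy4 (0.0506 to 0.112), and the HE call without C1, C3 or any HE library (0.0609 to 0.0795). Its relative Adam23 had 65.2, 5.997 and 39.8 CPM in HE, 11.7, 21.8, 82.9 and 42.0 CPM in Hy, and 5.46, 7.40 and 11.7 CPM in C. The HE and Hy libraries were widely scattered and reached down into the range of C, and the log2 fold changes of 2.18 ± 0.85 in HE against C and 2.27 ± 0.82 in Hy against C did not pass (adjusted p = 0.0944 and 0.0655). In Hy against C, Adam23 was called higher by DESeq2 (adjusted p = 0.0307), in a fit of C and Hy alone (0.0444) and without Hy1 (0.0413) or HE2 (0.0311). Adam3, Adam4 and Adam11 passed in no comparison. Adam7, of the same kind but below the minimum for members, had 0 counts in each HE library, 4, 0, 0 and 2 counts in Hy, and 18, 10 and 10 counts in C, and passed as lower in HE against C (adjusted p = 0.0173) and in Hy against C (adjusted p = 0.0406).

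Among 7 proteoglycan-cutting ADAMTS genes, 2 rose and 1 fell in Hy against C (42.9%, against 26.1% of all genes). In HE against C, 1 rose (14.3%, against 20.4% of all genes). Whether these 7 genes differ from the share of all genes was not tested. Adamts4, an aggrecanase, had 1.78, 0.787 and 0.828 CPM in HE, 2.21, 2.71, 6.43 and 2.06 CPM in Hy, and 0.836, 0.349 and 0.398 CPM in C. All Hy libraries lay above all others, Hy3 farthest, and raw counts ran from 34 to 103 in Hy against 6 to 15 in C. Adamts4 rose in Hy against C (log2 2.65 ± 0.57, adjusted p = 0.00989), and without Hy3 the value was 2.12 (adjusted p = 0.00672). The call held with each library left out. In HE against C it was 1.09 ± 0.59 (adjusted p = 0.213), and in HE against Hy -1.56 ± 0.53 (adjusted p = 0.773).

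Adamts1, which cuts versican and is induced by injury, had 144, 103 and 199 CPM in HE, 143, 121, 219 and 149 CPM in Hy, and 75.8, 111 and 82.1 CPM in C. It rose in Hy against C (log2 0.82 ± 0.26, adjusted p = 0.0429), but not with the replicate block (adjusted p = 0.0922) or without C1, C2, C3, Hy1, Hy3, Hy4 or HE1 (0.0544 to 0.136). The HE against C value was 0.73 ± 0.27 (adjusted p = 0.0852), and without Hy3 it was called higher (0.0457). Adamts9, a versican-cutting enzyme of vessels and other tissues, had 32.8, 33.7 and 43.8 CPM in HE, 43.2, 14.1, 51.6 and 22.5 CPM in Hy, and 91.9, 60.5 and 79.8 CPM in C. C was highest without overlap. Adamts9 fell in Hy against C (log2 -1.24 ± 0.37, adjusted p = 0.0343), which was lost without C1, C2, C3 or Hy4 (0.0597 to 0.103), and was -1.07 ± 0.40 in HE against C (adjusted p = 0.0831). In HE against C it was called lower by DESeq2 (adjusted p = 0.0290) and in a fit of HE and C alone (0.00430). The same call came without Hy2 (0.0354), without Hy3 (0.0432) and without Hy2 and Hy4 together (0.00872).

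Adamts8, a protease with abundant lung expression, had 45.3, 51.7 and 44.1 CPM in HE, 36.5, 33.1, 38.1 and 30.5 CPM in Hy, and 25.2, 38.3 and 27.6 CPM in C. HE was the highest group with no overlap, and Hy and C overlapped. Adamts8 rose in HE against C (log2 0.63 ± 0.17, adjusted p = 0.0257), and was 0.44 ± 0.15 in HE against Hy (adjusted p = 0.787) and 0.19 ± 0.16 in Hy against C (adjusted p = 0.390). The HE call was lost without C1, C3, HE1 or HE2 (0.0607 to 0.09997). Adamts5, the other main aggrecanase, averaged 6.67 ± 1.26 CPM in HE (n = 3), 8.36 ± 0.741 in Hy (n = 4) and 6.21 ± 2.15 in C (n = 3), and Adamts5, Adamts15 and Adamts20 passed in no comparison.

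None of the 3 procollagen N-proteinases, Adamts2, Adamts3 and Adamts14, passed. Adamts2, which trims fibrillar procollagens, averaged 51.1 ± 5.12 CPM in HE (n = 3), 53.5 ± 10.4 in Hy (n = 4) and 62.7 ± 12.4 in C (n = 3). Adamts13, which cuts von Willebrand factor, had 6.73, 7.69 and 6.46 CPM in HE, 4.90, 6.37, 2.50 and 5.82 CPM in Hy, and 6.47, 8.74 and 5.00 CPM in C. HE lay above Hy without overlap, with a log2 fold change of 0.51 ± 0.31 that did not pass (adjusted p = 1.00).

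Adamts10, which binds fibrillin, had 260.3, 232 and 195 CPM in HE, 193, 296, 217 and 271 CPM in Hy, and 119, 147 and 157 CPM in C. HE and Hy lay above C without overlap. Adamts10 rose in HE against C (log2 0.70 ± 0.19, adjusted p = 0.0286) and in Hy against C (log2 0.79 ± 0.18, adjusted p = 0.0122). The Hy call was lost with the replicate block (adjusted p = 0.0536) and without C1 (0.0542), and the HE call without C1, C2, C3, HE1 or HE2 (0.0629 to 0.100). Adamts7, which cuts cartilage oligomeric matrix protein and acts in vascular smooth muscle, averaged 9.05 ± 1.29 CPM in HE (n = 3), 7.91 ± 2.13 in Hy (n = 4) and 4.89 ± 0.901 in C (n = 3). It rose in HE against C (log2 0.89 ± 0.27, adjusted p = 0.0410). That call was lost with the replicate block (adjusted p = 0.0604), without a filter on low counts (0.0516) and without any C or HE library (0.0664 to 0.128). Adamts6, Adamts12, Adamts17 and Adamts19 passed in no comparison.

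Of the 5 ADAMTS-like genes, 2 rose and 1 fell in Hy against C (60%, against 26.1% of all genes). In HE against C, 2 rose (40%, against 20.4% of all genes). Whether these 5 genes differ from the share of all genes was not tested. ADAMTS-like proteins are secreted, have no protease domain and bind fibrillin microfibrils or other matrix parts. Adamtsl5 had 74.6, 103 and 90.6 CPM in HE, 66.8, 70.0, 68.8 and 87.5 CPM in Hy, and 51.0, 53.6 and 44.3 CPM in C. C was lowest without overlap. Adamtsl5 rose in HE against C (log2 0.85 ± 0.15, adjusted p = 0.00688), a call that held with each library left out (at most 0.0386). It also rose in Hy against C (log2 0.56 ± 0.14, adjusted p = 0.0198), a call lost with the replicate block (adjusted p = 0.0620) and without C1 or C3 (0.0579 and 0.0872).

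Adamtsl2, which binds a latent transforming growth factor beta binding protein, had 127, 164 and 157 CPM in HE, 80.3, 119.9, 83.9 and 159.9 CPM in Hy, and 81.0, 69.3 and 57.5 CPM in C. HE lay above C, and Hy overlapped both. It rose in HE against C (log2 1.11 ± 0.26, adjusted p = 0.0162), lost without C2, C3 or HE2 (0.0576 to 0.0688), and was 0.68 ± 0.24 in Hy against C (adjusted p = 0.0600). In Hy against C, Adamtsl2 was called higher by DESeq2 (adjusted p = 0.0307) and without Hy1 (0.0332) or Hy3 (0.0255). Adamtsl4, a fibrillin-1 binder, averaged 126 ± 21.3 CPM in HE (n = 3), 131 ± 32.6 in Hy (n = 4) and 87.0 ± 3.37 in C (n = 3). Its rise in Hy against C (log2 0.59, adjusted p = 0.0493) was lost in most settings, with an adjusted p of 0.103 under the replicate block and 0.0532 to 0.138 without each library other than Hy1.

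Adamtsl3 had 21.3, 24.0 and 28.0 CPM in HE, 18.8, 16.1, 19.3 and 12.9 CPM in Hy, and 27.5, 27.4 and 29.1 CPM in C. Hy was the lowest group without overlap, and HE overlapped C. Adamtsl3 fell in Hy against C (log2 -0.74 ± 0.16, adjusted p = 0.00914), which held with each library left out (adjusted p at most 0.0415) and with the replicate block, but not without Hy2 and Hy4 together (0.0565). It was 0.54 ± 0.16 in HE against Hy, the smallest unadjusted p of the family there in edgeR's test (0.00574, adjusted p = 0.739), and -0.20 ± 0.17 in HE against C. Adamtsl1 passed in no comparison.

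**Figure D5:**
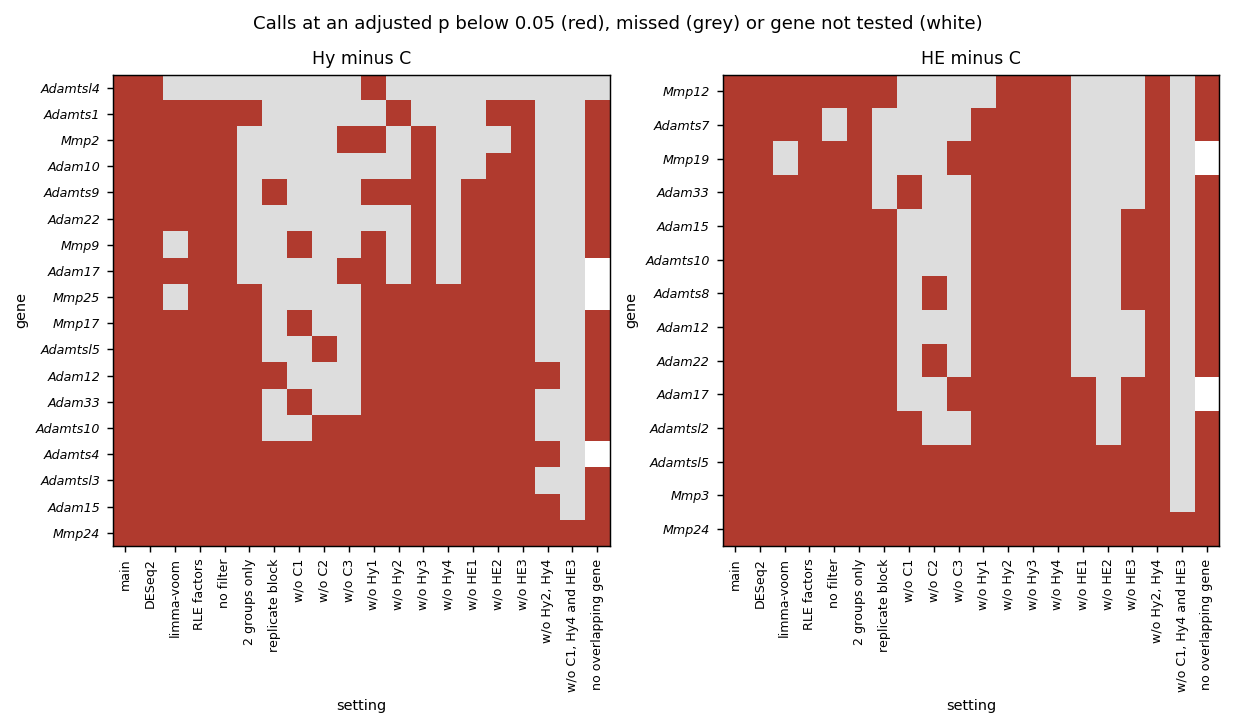
Calls at an adjusted p below 0.05 for the members that passed in Hy minus C (18 rows, left) and HE minus C (14 rows, right) under each setting (columns). Red marks a call, grey a missed call and white a gene not tested; Mmp24 alone is red wherever it was tested in both panels.

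Of the 18 calls in Hy against C, 4 held with each of the 10 libraries left out in turn (Adam15, Adamts4, Adamtsl3 and Mmp24). Of the 14 in HE against C, 3 did (Adamtsl5, Mmp3 and Mmp24). Without Hy2 and Hy4 together, 4 calls of Hy against C were left (Adam12, Adam15, Adamts4 and Mmp24). A fit of C and Hy alone ended those of Adam10, Adam17, Adam22, Adamts9, Adamtsl4, Mmp2 and Mmp9 (adjusted p 0.0510 to 0.0725). A 2-fold change, up or down, was reached by 11 members in Hy against C (19.3%, against 11.4% of all genes), by 13 in HE against C (22.8%, against 10.5%) and by 6 in HE against Hy (10.5%, against 2.77%).

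Genes that act with the family were read from lists chosen with earlier results known, and their counts read against the 26.1% of all genes called in Hy against C and the 20.4% in HE against C. Calls of these genes, and of Adam7 above, come from edgeR's fit of all libraries alone. How far they hold in the alternatives was not examined. Of 8 tested inhibitors outside the TIMPs, none passed in any comparison. Of 11 tested activators of the precursors, 1 passed, in Hy against C. Plaur, the urokinase receptor, had 56.3, 79.3 and 48.2 CPM in HE, 85.6, 77.4, 77.5 and 69.0 CPM in Hy, and 57.9, 43.0 and 50.01 CPM in C. Hy lay above C throughout, and HE2 lay among the Hy libraries. Plaur rose in Hy against C (log2 0.62 ± 0.18, adjusted p = 0.0279).

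Among 8 tested partners of Adam10 and Adam17, 3 rose and 1 fell in Hy against C (50%), while 2 rose and 1 fell in HE against C (37.5%). Rhbdf2, the pseudoprotease that carries Adam17 to the cell surface, had 96.6, 86.0 and 77.5 CPM in HE, 111, 123, 134 and 115 CPM in Hy, and 69.7, 84.8 and 90.1 CPM in C. All Hy libraries lay above all others. Rhbdf2 rose in Hy against C (log2 0.57 ± 0.13, adjusted p = 0.0119), as did Rhbdf1 (log2 0.38, adjusted p = 0.0430) and Frmd8, a stabiliser of these complexes (log2 0.38, adjusted p = 0.0206). Tspan5, a tetraspanin that guides Adam10, had 15.9, 22.3 and 19.5 CPM in HE, 23.4, 20.1, 23.6 and 15.0 CPM in Hy, and 29.1, 34.7 and 26.5 CPM in C, and fell in both comparisons with C (log2 -0.64 in HE, adjusted p = 0.0446, and -0.55 in Hy, adjusted p = 0.0496). Frmd8 (log2 0.38, adjusted p = 0.0317) and Tspan17 (log2 0.39, adjusted p = 0.0395) rose in HE against C.

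Of 28 tested shed growth factors, cytokines and receptors, 2 rose and 2 fell in Hy against C (14.3%), and 2 fell in HE against C (7.14%), both below the share of all genes. Cd44, a hyaluronan receptor cut by Adam10 and Mmp14, had 51.7, 61.9 and 71.2 CPM in HE, 97.3, 87.9, 104 and 98.5 CPM in Hy, and 175, 163 and 165 CPM in C. The 3 groups did not overlap, with HE lowest. Cd44 fell in HE against C (log2 -1.44 ± 0.13, adjusted p = 0.000234) and in Hy against C (log2 -0.79 ± 0.12, adjusted p = 0.00238). Met, the receptor of hepatocyte growth factor, fell by 0.99 in HE against C (adjusted p = 0.0164) and by 1.03 in Hy against C (adjusted p = 0.00828) on the log2 scale. Jag1, a Notch ligand, rose in Hy against C (log2 0.58, adjusted p = 0.0199).

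Of 17 tested matrix substrates, 1 rose and 2 fell in Hy against C (17.6%), and 2 fell in HE against C (11.8%), also below the share of all genes. Col3a1, a fibrillar collagen, had 332, 193 and 467 CPM in HE, 582, 259, 241 and 186 CPM in Hy, and 896, 1044 and 636 CPM in C. It fell in HE against C (log2 -1.38 ± 0.44, adjusted p = 0.0499) and in Hy against C (log2 -1.44 ± 0.40, adjusted p = 0.0268). Col1a2 fell in Hy against C (log2 -0.79, adjusted p = 0.0195), Vwf, the substrate of Adamts13, rose there (log2 0.66, adjusted p = 0.0430), and Vcan, the versican gene, fell in HE against C (log2 -2.09, adjusted p = 0.0201). Of 5 other tested metzincins, Tll1, which processes procollagens, fell in HE against C (log2 -1.46, adjusted p = 0.0412) and in Hy against C (log2 -1.52, adjusted p = 0.0216). None of these genes passed in HE against Hy.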

How the data were processed

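Lung mRNA libraries were made after oligo(dT) selection, per the labels' protocols, which do not state whether strand was kept. The deposited values are the authors' estimated counts per gene, not normalised. HISAT2 2.0.4, Bowtie2 2.2.5, RSEM 1.2.12, DESeq 1.4.5 and build GRCm38.p6 are named, per the submitters' processing notes, with no roles stated. Counts were rounded to whole numbers, and genes with a value in all 10 files were filtered on low counts (filterByExpr by group) and fitted together with edgeR 4.0.16 (R 4.3.3; TMM, robust quasi-likelihood, 7 residual degrees of freedom). Adjusted p-values are Benjamini-Hochberg over 14766 genes, with 0.05 as the threshold, and the common biological coefficient of variation was 26.9%. Where no tool stands beside an adjusted p, it is edgeR's.

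Members and gene lists were chosen with earlier results of these data known. Genes named with values per library were, per comparison, up to 8 called members each way with the smallest p, any with an absolute log2 fold change of at least 2, the 5 smallest p where fewer than 5 were called, 19 listed members, and up to 4 called genes per list. Some values of genes outside the family are not reported here. The spans of 11 members overlap another gene with a value. Gene spans are from RefSeq, and exon lengths and coding sequences from GENCODE. The alternatives were DESeq2 1.42.0, limma-voom (limma 3.58.1), RLE factors, no filter, a fit of the compared groups alone, a block for the replicate number, and leaving out each library in turn. Added after seeing the data were fits without Hy2 and Hy4, without C1, Hy4 and HE3, and of genes that overlap no other. Same-numbered C and Hy libraries correlated at 0.12, 0.25 and 0.13 in their deviations, which met the criterion of 0.1 in every pair. The labels state no pairing, and libraries of unlike number were not compared. HE numbers did not meet the criterion in every pair with C or Hy (-0.26 to 0.19).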

Additional observations from a re-analysis of the deposited data

Results flagged for a closer look

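In 5 of the 57 genes, 1 of the 4 Hy libraries stood apart from the other 3 by Dixon's test at 95%, where chance gives about 1 in 20 groups. Adam10 had 125 CPM in Hy3, against 68.2 to 74.8 in the other Hy libraries, and remained lower in Hy than in C without it. Adam9, a sheddase that passed in no comparison, had 213 CPM in Hy3 and 116 to 129 in the others, and without Hy3 it was called lower in Hy against C (adjusted p = 0.00565). Adamts4 had 6.43 CPM in Hy3 and 2.06 to 2.71 in the others, and was called with or without Hy3. Mmp23 had 5.24 CPM in Hy3 and 7.88 to 8.37 in the others, in an otherwise narrow group. Adamtsl5 had 87.5 CPM in Hy4 and 66.8 to 70.0 in the others, and without Hy4 it was still called higher in Hy than in C (adjusted p = 0.0451). Red cell markers summed to 38429 CPM in Hy3, against 724 to 8796 in the other Hy libraries, and their part in these values was not tested.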

How the results depend on the processing

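In Hy against C, where 18 members were called, the replicate block left 6, the fit without Hy2 and Hy4 left 4 (7.02%) and the fit without C1, Hy4 and HE3 left 1 (1.79%), and of all genes they called 11.8%, 7.19% and 2.44%. The count ran from 6 to 21 with 1 library left out, being 7 without C1, 6 without C2, 8 without C3, 12 without Hy2, 10 without Hy4 and 21 without Hy3. The share of all genes called moved alike, at 13.2% without C1, 11.2% without C2, 11.3% without C3, 18.6% without Hy2, 16.7% without Hy4 and 40.6% without Hy3. In HE against C, where 14 were called, the fit without C1, Hy4 and HE3 left 1, and the count ran from 3 to 19 with 1 library left out, being 5 without each C library, 5, 3 and 8 without HE1, HE2 and HE3, and 19 without Hy3, while the share of all genes called ran from 6.78% to 32%. These fits hold fewer libraries or residual degrees of freedom, and the count rose without Hy3 in both comparisons. The cause of these changes was not tested. DESeq2, limma-voom, RLE factors, no filter, only the groups compared and genes that overlap no other gave 12 to 23 calls in Hy against C and 12 to 19 in HE against C, and HE against Hy gave 0 in every setting. Gene results were followed for genes of the naming rule above, where they were called or met the rule in that comparison. Over these 39 results and 735 alternatives, no direction reversed. Of the alternatives, 557 kept their direction and their side of the threshold, 171 lost the call and 7 gained one. Being chosen for a call, a large fold or a small p, these results were unlikely to reverse. The Adamtsl4 call in Hy against C was not among them, and it held in 2 of 19 alternatives. Members that were not called changed sign in some settings, such as Adam8 in Hy against C (log2 -0.47 to 2.32) and Timp2 in HE against C (-0.04 to 0.18). The replicate block changed no call in HE against C other than Adam33, Adamts7 and Mmp19. Members near 1 CPM rest on few reads, so their folds are the least precise.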
